A study of Mus musculus with 9 samples.

Results

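The C-type lectin receptors described here are the products of 10 genes: Clec4a1, Clec4a2, Clec4a3, Clec4d, Clec4e, Clec5a, Clec7a, Clec10a, Clec12a and Cd209a. They were chosen by name from this receptor family, with earlier results of these data known, out of 55487 gene IDs measured by RNA sequencing. All 10 were among the 18341 genes that passed the filter on low counts. Monocytes were sorted from the spleens of untreated C57BL/6 mice in 3 groups of 3 libraries each. The first group holds Ly6Clo monocytes of Cebpa +37-/- mice, which lack both copies of the +37 element of Cebpa (here KO Ly6Clo). The other groups hold Ly6Clo and Ly6Chi monocytes of mice with an intact element (WT Ly6Clo and WT Ly6Chi). The study asked what Cebpa, which encodes the transcription factor C/EBP-alpha, is needed for in the 2 monocyte subsets. The labels give no age, and nothing in them says that the replicates came from different mice. The p-values therefore speak of library-to-library spread, part of which may be technical. The labels name no Cre or other driver that would limit the deletion to monocytes.

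C-type lectin receptors are cell-surface proteins that bind sugars, lipids and other ligands of microbes and damaged cells. Some carry an activating motif or pair with the adaptor chains encoded by Fcer1g and Tyrobp and signal through the kinase Syk and the adaptor Card9, which leads to cytokine production. Others carry an inhibitory motif that recruits phosphatases such as the product of Ptpn6. Myeloid cells are the main carriers of both kinds, and in mice several of the genes lie side by side on chromosome 6.

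Of the members, Clec4a1, Clec4a3, Clec4a2, Clec4d and Clec4e form such a neighbourhood on chromosome 6 (GRCm38, chr6:122921848-123289870), with Clec4a4, Clec4b1, Clec4b2 and Clec4n between them. Clec7a (chr6:129461591-129472779, minus strand) and Clec12a (chr6:129342691-129365303, plus strand) lie farther along the same chromosome, with Clec12b, Clec1b, Clec9a and Clec1a between them. Clec5a lies apart on it (chr6:40574894-40585821, minus strand), Clec10a on chromosome 11 (chr11:70156197-70170834, plus strand) and Cd209a on chromosome 8 (chr8:3743397-3748984, minus strand). GENCODE M21 annotates 9 of the genes as protein coding and Clec7a as a polymorphic pseudogene, a class for genes whose reading frame is intact only in some strains. The genes Clec4a1 to Clec4a4, Clec4b1 with Clec4b2, and the Cd209 genes are similar copies, so the split of reads among them is less certain.

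The promoters of 5 members are shown to set sequence beside measured difference. Clec4a2, Clec5a and Cd209a had the largest differences between groups. Clec4e and Clec12a hold a match to the letters TTGCNNAA, the core bound by C/EBP factors, and their libraries overlapped between KO Ly6Clo and WT Ly6Clo. The sequences are 300 bases each, from 250 before to 50 after the RefSeq start of the gene, in GRCm38.p6, read along the gene's strand. RefSeq promoters were found for 9 of the 10 members. None was found for Clec10a, so its promoter was not searched. Capitals mark matches to TTGCNNAA, or to GAGGAA, the core bound by the myeloid factor PU.1, on either strand. The RefSeq starts of Clec4a2 and Clec12a lie inside the GENCODE gene.
Clec4a2: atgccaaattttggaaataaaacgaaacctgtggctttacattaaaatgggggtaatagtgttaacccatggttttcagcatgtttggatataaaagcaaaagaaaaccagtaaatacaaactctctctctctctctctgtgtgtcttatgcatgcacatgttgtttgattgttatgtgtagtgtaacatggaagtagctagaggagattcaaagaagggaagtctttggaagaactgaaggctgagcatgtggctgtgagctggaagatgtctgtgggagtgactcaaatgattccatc
Clec5a: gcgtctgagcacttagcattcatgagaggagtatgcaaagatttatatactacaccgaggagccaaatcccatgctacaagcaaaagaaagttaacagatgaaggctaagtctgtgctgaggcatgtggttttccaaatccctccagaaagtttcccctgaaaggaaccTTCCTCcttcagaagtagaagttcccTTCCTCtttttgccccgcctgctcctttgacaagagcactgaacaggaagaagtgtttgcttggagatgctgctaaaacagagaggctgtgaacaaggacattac
Cd209a: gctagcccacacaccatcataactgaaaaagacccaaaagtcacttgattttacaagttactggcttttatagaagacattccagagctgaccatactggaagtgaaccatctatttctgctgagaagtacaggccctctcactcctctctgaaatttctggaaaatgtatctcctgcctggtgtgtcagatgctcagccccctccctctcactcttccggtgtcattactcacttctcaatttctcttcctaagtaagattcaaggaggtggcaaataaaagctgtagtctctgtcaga
Clec4e: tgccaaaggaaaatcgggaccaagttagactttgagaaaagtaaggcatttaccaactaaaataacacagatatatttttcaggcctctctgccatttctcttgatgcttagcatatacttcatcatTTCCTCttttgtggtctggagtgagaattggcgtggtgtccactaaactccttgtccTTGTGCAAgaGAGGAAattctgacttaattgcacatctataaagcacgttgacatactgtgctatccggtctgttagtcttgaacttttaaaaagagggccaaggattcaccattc
Clec12a: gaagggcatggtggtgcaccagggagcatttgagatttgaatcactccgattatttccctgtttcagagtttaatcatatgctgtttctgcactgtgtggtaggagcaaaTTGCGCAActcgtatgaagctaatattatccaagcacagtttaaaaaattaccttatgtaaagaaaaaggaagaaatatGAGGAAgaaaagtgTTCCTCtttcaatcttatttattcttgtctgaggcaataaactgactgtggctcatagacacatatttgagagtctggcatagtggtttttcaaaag

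The coordinates are chr6:123122440-123122739 (plus strand) for Clec4a2, chr6:40585756-40586055 (minus strand) for Clec5a, chr8:3748935-3749234 (minus strand) for Cd209a, chr6:123289822-123290121 (minus strand) for Clec4e and chr6:129349994-129350293 (plus strand) for Clec12a. TTGCNNAA or its reverse complement TTNNGCAA was found in 2 of the 9 member promoters (Clec4e and Clec12a) and in 10.7% of the 27025 mouse promoters searched. GAGGAA or its reverse complement TTCCTC was found in 6 of the 9 (Clec4a1, Clec4d, Clec4e, Clec5a, Clec7a and Clec12a) and in 28.3% of all promoters. The 2 motifs did not overlap in these windows. The windows of Clec4a2 and Cd209a hold neither. A match describes these letters only.

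Total counts were 53032616 to 173703361 in the 6 Ly6Clo libraries and 48141590 to 50464920 in the 3 WT Ly6Chi libraries. Levels are given as CPM, the counts of a gene scaled to a common library size with TMM factors. Means carry their SD over 3 libraries. A fold change is on the log2 scale, with SE for its standard error, and a gene is called when its adjusted p from edgeR's quasi-likelihood test is under 0.05. Cebpa itself was at 4.04, 2.89 and 2.74 CPM in KO Ly6Clo, against 18.2, 17.7 and 19.2 CPM in WT Ly6Clo. Its RNA was thus lower in every library labelled KO, while the deletion of the element was not itself examined. Ly6c2, which encodes a part of the sorting antigen, was at 2.94 ± 0.855 CPM in KO Ly6Clo, 3.93 ± 1.58 in WT Ly6Clo and 946 ± 104 in WT Ly6Chi. Ccr2, the receptor that guides Ly6Chi monocytes out of bone marrow, was at 140 ± 44.9, 92.6 ± 8.32 and 1160 ± 301 CPM in the same order. Nr4a1, a transcription factor needed for Ly6Clo monocytes, was at 4500 ± 2500, 6380 ± 4400 and 1910 ± 1380 CPM, and Cx3cr1, their fractalkine receptor, at 382 ± 80.4, 507 ± 112 and 355 ± 152 CPM. Of the sorted libraries, WT Ly6Chi replicate 3 stands apart by Xist at 30.0 CPM and Ddx3y at 0, while the other 8 had Xist at no more than 0.0417 CPM and Ddx3y at 69.4 to 142 CPM. Replicate 1 of each group had the lowest sum of immediate early genes.

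The 10 genes differed widely in level within each group. On the scale of level per length (RPKM, the CPM divided by the gene's length in kilobases), Clec4a3 was the highest in each group, at 630 ± 249 in KO Ly6Clo, 629 ± 120 in WT Ly6Clo and 412 ± 25.4 in WT Ly6Chi. The order below it in KO Ly6Clo was Clec4a1 at 119 ± 23.9, Clec7a at 74.5 ± 16.6, Clec4e at 74.4 ± 19.3, Clec12a at 38.5 ± 14.2, Clec4a2 at 8.31 ± 4.67, Clec4d at 2.36 ± 0.309, Clec10a at 1.18 ± 0.512, Cd209a at 1.01 ± 0.353 and Clec5a at 0.0525 ± 0.0473. The libraries of Clec7a and Clec4e overlapped there, as did those of Clec10a and Cd209a, so these pairs have no order beyond their spread. In WT Ly6Clo, Clec4a1 at 140 ± 22.5, Clec7a at 108 ± 59.3, Clec4e at 60.1 ± 41.9 and Clec12a at 42.6 ± 3.87 followed, each overlapping the next. Cd209a at 21.8 ± 17.5, Clec4d at 3.01 ± 1.39, Clec10a at 2.94 ± 0.699 and Clec4a2 at 2.53 ± 0.366 formed a second overlapping run, with Clec5a last at 0.38 ± 0.165. In WT Ly6Chi, Clec7a took the second place at 192 ± 35.0, ahead of Clec4a1 at 79.2 ± 8.59. Clec12a at 55.9 ± 6.65, Cd209a at 54.6 ± 26.1, Clec4e at 28.0 ± 7.54 and Clec4a2 at 25.2 ± 11.9 overlapped in turn, and Clec10a at 11 ± 2.94, Clec5a at 10.0 ± 5.13 and Clec4d at 4.25 ± 1.44 were the lowest.

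The make-up of the summed level differed between the subsets, while the sum itself overlapped between the groups. The summed RPKM of the 10 genes was 1249, 812 and 787 in KO Ly6Clo, 1076, 1056 and 902 in WT Ly6Clo, and 854, 849 and 913 in WT Ly6Chi. Clec4a3 made up 73.4, 57.5 and 64.4% of it in KO Ly6Clo, 71.3, 51.9 and 63.5% in WT Ly6Clo, and 51.2, 45.6 and 45.1% in WT Ly6Chi. Clec7a, the beta-glucan receptor Dectin-1, made up 4.66, 11.3 and 9.41% in KO Ly6Clo, 5.66, 16.6 and 9.85% in WT Ly6Clo, and 18.0, 23.5 and 24.4% in WT Ly6Chi. For both shares the Ly6Clo libraries of either genotype did not overlap with the WT Ly6Chi libraries, and the KO and WT Ly6Clo libraries overlapped.

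**Figure D1:**
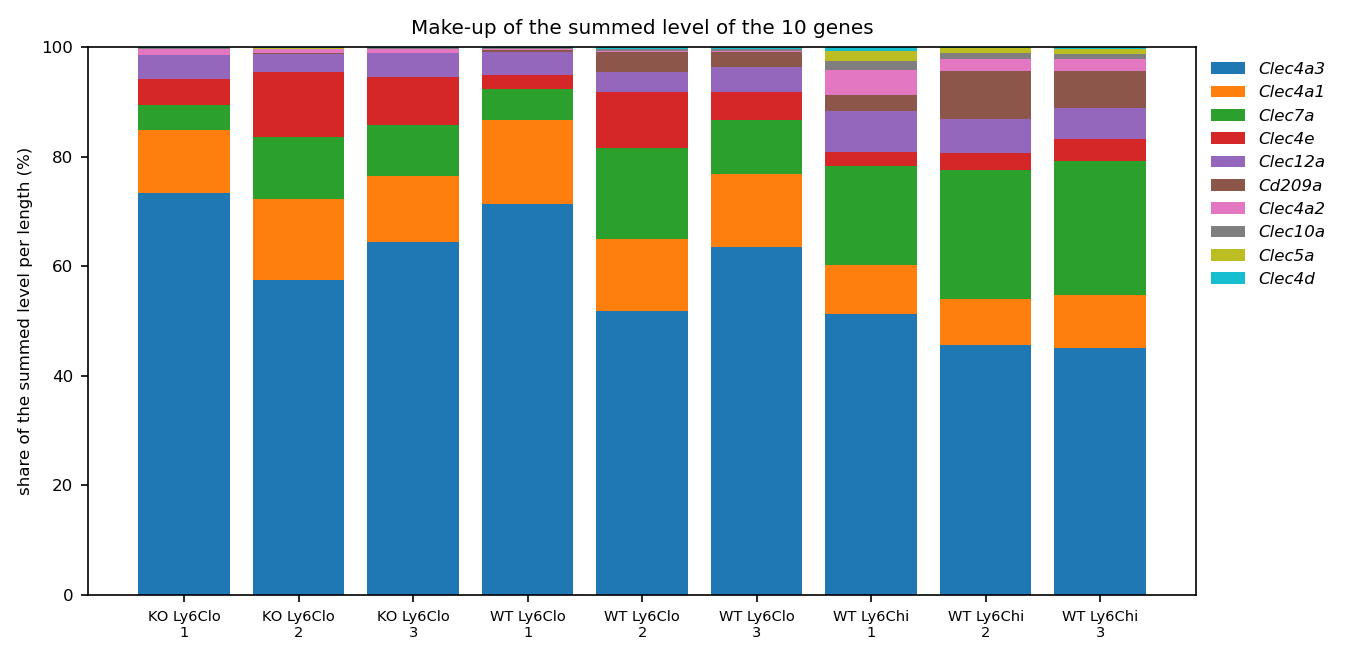
Stacked bars of the share (%) of each gene in the summed RPKM of the 10 C-type lectin receptor genes, 1 bar per library, grouped as KO Ly6Clo, WT Ly6Clo and WT Ly6Chi. Clec4a3 takes 51.9 to 73.4% in the Ly6Clo libraries and 45.1 to 51.2% in WT Ly6Chi, and Clec7a takes 18.0 to 24.4% in WT Ly6Chi.

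Between the subsets of WT mice, 3 of the 10 genes were called, all lower in WT Ly6Clo: Clec4a2, Clec5a and Clec10a. Over all tested genes 3.51% were called in this comparison, 1.88% higher and 1.62% lower in WT Ly6Clo. At an unadjusted p under 0.05 there were 7 of the 10, against 18.2% of all. The groups did not overlap for 6 of the 10 genes, against 28.3% of all tested genes. The median log2 fold change of the 10 was -0.66, against 0.00 for all tested genes. The members were chosen with earlier results of these data known. The shares of all tested genes are therefore given for scale, here and below, and test nothing about the members. Of 25 other tested genes of the family, edgeR called 0 in this comparison, with 2 at an unadjusted p under 0.05. In bulk RNA, fewer cells that express a gene and less RNA per cell cannot be told apart.

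Clec4a2 encodes DCIR1, a receptor with an inhibitory motif in its cytoplasmic tail. It was at 6.31, 8.44 and 7.48 CPM in WT Ly6Clo, against 114, 52.4 and 55.1 CPM in WT Ly6Chi. Every WT Ly6Clo library lay far below every WT Ly6Chi library. The log2 fold change was -3.31 (SE 0.46, edgeR adjusted p = 0.0071), and the call held without any library of either group. Clec5a encodes MDL-1, an activating receptor that pairs with the Tyrobp chain. It was at 2.09, 0.822 and 1.47 CPM in WT Ly6Clo, against 61.0, 25.0 and 29.3 CPM in WT Ly6Chi. No libraries overlapped, and the log2 fold change was -4.72 (SE 0.83, edgeR adjusted p = 0.018). The Clec5a call was lost without WT Ly6Chi replicate 1 or 3 or any 1 of the WT Ly6Clo libraries, with edgeR adjusted p = 0.051 to 0.086. Clec10a encodes MGL1, a receptor for galactose and N-acetylgalactosamine. It was at 6.22, 10.0 and 9.36 CPM in WT Ly6Clo, against 41.8, 28.2 and 26.0 CPM in WT Ly6Chi. The groups were again apart, with a log2 fold change of -1.91 (SE 0.40, edgeR adjusted p = 0.036). That call was lost without any 1 library of these groups, without KO Ly6Clo replicate 3 and without replicate 1 of each group, the edgeR adjusted p then being 0.057 to 0.14. Without WT Ly6Chi replicate 3, Clec4a2 alone was called.

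Of the markers of other cells, 4 of 9 neutrophil and granule genes were called lower in WT Ly6Clo, the direction of these 3 receptors. The 9 neutrophil and granule genes summed to 5.23 to 8.86 CPM in WT Ly6Clo and 254 to 571 CPM in WT Ly6Chi. None of them was at 0 in every library of a group. In WT Ly6Chi, S100a8 was at 113 ± 38.1, S100a9 at 120 ± 64.5, Ltf at 65.5 ± 50.6 and Camp at 42.0 ± 41.2 CPM. Bulk RNA does not show whether monocytes or other cells carried these transcripts. Of the 9 genes, 7 had a negative and 2 a positive log2 fold change. Cxcr2 was at 1.76 ± 0.573 CPM in WT Ly6Clo and 0.421 ± 0.553 in WT Ly6Chi. Elane, a granule protease of progenitors, was at 0 to 0.367 CPM in WT Ly6Clo and 8.70 to 30.8 CPM in WT Ly6Chi. The mature neutrophil marker Ly6g was at no more than 0.411 CPM in any library. T cell, conventional dendritic cell and plasmacytoid dendritic cell genes also had negative median log2 fold changes, at -0.55, -0.34 and -0.17, with 0, 0 and 1 called lower. Red pulp macrophage and platelet genes had medians of 0.60 and 0.69, with 1 and 0 called higher. The NK, erythroid, B cell and basophil lists had positive medians, with no member called by edgeR (1, 0, 3 and 3 at an unadjusted p under 0.05). The sums were 44.7 to 191 CPM in WT Ly6Clo and 13.1 to 46.3 CPM in WT Ly6Chi for 6 NK cell genes. They were 405 to 3355 against 134 to 229 CPM for 7 erythroid genes. The median log2 fold change was 1.98 for NK cell genes, 2.81 for erythroid genes, 1.28 for 6 B cell genes and 3.82 for the 6 tested genes of basophils, mast cells and eosinophils. The part of these cells in the differences of Clec4a2, Clec5a and Clec10a was not tested.

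The remaining 7 genes were not called between the WT subsets, although 4 of them had an unadjusted p under 0.05. Of the 7, Cd209a is not among those 4 and is described with the genotypes. Clec4a1 and Clec4a3 encode DCIR4 and DCIR3, relatives of the Clec4a2 product. Clec4a1 was at 256, 214 and 186 CPM in WT Ly6Clo, against 120, 112 and 138 CPM in WT Ly6Chi, with a log2 fold change of 0.83 (SE 0.20, edgeR adjusted p = 0.057). Its groups did not overlap, and its difference has the opposite sign to that of Clec4a2. It was called in 3 of 18 alternatives, with an adjusted p of 0.00359 from DESeq2, 0.0484 from edgeR on the 2 groups alone and 0.0452 from edgeR without KO Ly6Clo replicate 1. Clec4a3 was at 1018, 727 and 760 CPM in WT Ly6Clo, against 581, 513 and 546 CPM in WT Ly6Chi, with a log2 fold change of 0.61 (SE 0.26, edgeR adjusted p = 0.26), also with no overlap. The ratio of Clec4a3 to Clec4a2 in RPKM was 356, 190 and 224 in WT Ly6Clo and 11.3, 21.6 and 21.9 in WT Ly6Chi. The ratio of Clec4a3 to Clec4a1 was 4.67, 3.99 and 4.79 in WT Ly6Clo and 5.67, 5.38 and 4.64 in WT Ly6Chi, so these neighbours kept similar proportions across the subsets while Clec4a2 did not. Clec12a, an inhibitory receptor that binds uric acid crystals, was at 259, 218 and 229 CPM in WT Ly6Clo, against 351, 291 and 285 CPM in WT Ly6Chi, with a log2 fold change of -0.39 (SE 0.25, edgeR adjusted p = 0.46). Clec7a was at 161, 461 and 234 CPM in WT Ly6Clo, against 406, 525 and 587 CPM in WT Ly6Chi, and WT Ly6Clo replicate 2 lay within the WT Ly6Chi range. Its log2 fold change was -0.83 (SE 0.36, edgeR adjusted p = 0.27).

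Clec4e and Clec4d encode Mincle and MCL, receptors for mycobacterial glycolipids that pair with each other and with the Fcer1g chain. Clec4e was at 136, 533 and 227 CPM in WT Ly6Clo, against 109, 127 and 181 CPM in WT Ly6Chi, where WT Ly6Clo replicate 2 was the highest library and replicate 1 lay within the WT Ly6Chi range. The log2 fold change was 1.10 (SE 0.46, edgeR adjusted p = 0.25). Clec4d was at 2.71, 7.15 and 4.58 CPM in WT Ly6Clo, against 8.62, 4.21 and 7.53 CPM in WT Ly6Chi, overlapping, with a log2 fold change of -0.49 (SE 0.44, edgeR adjusted p = 0.62). The ratio of Clec4e to Clec4d in RPKM was 25.6, 35.5 and 32.7 in KO Ly6Clo, 16.1, 24.0 and 15.9 in WT Ly6Clo and 4.08, 9.72 and 7.74 in WT Ly6Chi. The pair was thus weighted towards Clec4e in all libraries, and more so in the Ly6Clo libraries than in any WT Ly6Chi library. The 9 immediate early genes summed to 4779, 33122 and 17339 CPM in WT Ly6Clo, against 1904, 18428 and 18949 CPM in WT Ly6Chi. Their part in the Clec4e spread was not tested.

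**Figure D2:**
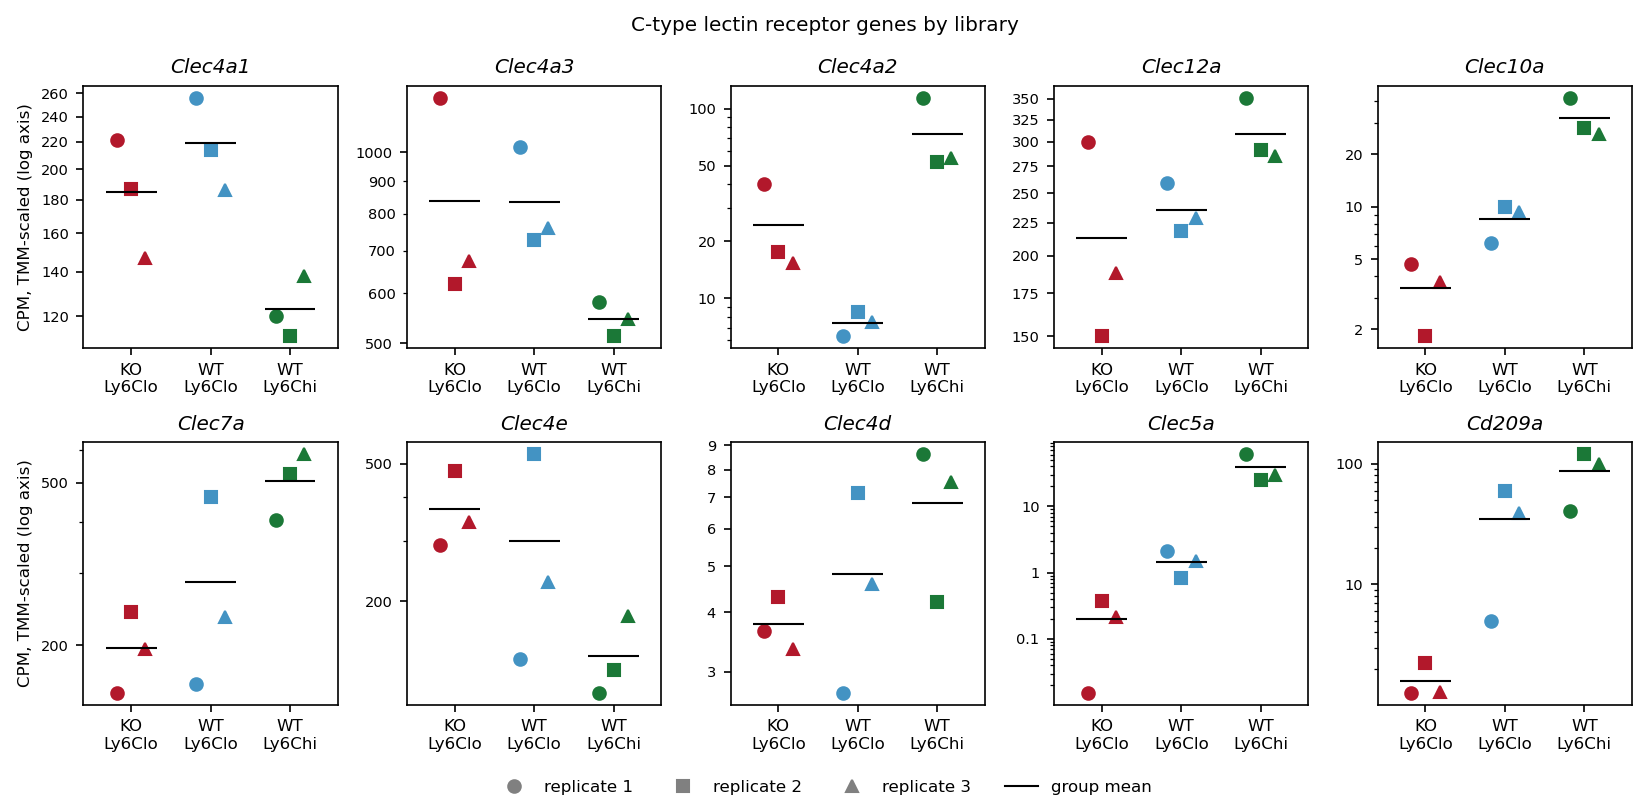
CPM (TMM-scaled, log axes that differ between panels) of the 10 genes in KO Ly6Clo, WT Ly6Clo and WT Ly6Chi, with 1 point per library, shaped by replicate, and a line at the group mean. Clec4a2, Clec5a and Clec10a are apart in the WT subsets, and Cd209a is at 1.27 to 2.24 CPM in KO Ly6Clo against 4.93 to 59.9 CPM in WT Ly6Clo.

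Between the genotypes, in Ly6Clo monocytes, 0 of the 10 genes were called by edgeR, where 0.0709% of all tested genes were (13 of 18341, with 0.0109% higher and 0.06% lower in KO). At an unadjusted p under 0.05 there were 4 of the 10, against 6.16% of all tested genes, and the same 4 (Clec4a2, Clec5a, Clec10a and Cd209a) had no overlap between groups, against 10.9% of all. DESeq2 called 3 of them, Cd209a, Clec4a2 and Clec5a, and limma-voom none. The median log2 fold change of the 10 was -0.30, against 0.03 for all tested genes.

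Cd209a, a mouse homologue of DC-SIGN that dendritic cells and some monocytes carry, had the largest difference. It was at 1.27, 2.24 and 1.28 CPM in KO Ly6Clo (82, 320 and 73 counts), against 4.93, 59.9 and 38.7 CPM in WT Ly6Clo (269, 9044 and 2026 counts). All KO libraries were low, and WT Ly6Clo replicate 1 stood well below the other two of its group. The log2 fold change was -4.42 (SE 0.85, 95% interval -6.34 to -2.50), with an edgeR adjusted p = 0.18. Without WT Ly6Clo replicate 1 it was -4.95, called with edgeR adjusted p = 0.038. DESeq2 gave -4.43 with an adjusted p = 1.5e-07, and edgeR with no filter on low counts -4.46 with an adjusted p = 0.0062. WT Ly6Chi libraries had 40.3, 120 and 98.8 CPM, which overlapped with WT Ly6Clo. WT Ly6Clo against WT Ly6Chi gave a log2 fold change of -1.32 (SE 0.74, 95% interval -3.00 to 0.36, edgeR adjusted p = 0.4).

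Flt3, a receptor of dendritic cells and their progenitors, was also lowest of its group in WT Ly6Clo replicate 1. It was at 10.3, 51.0 and 1.90 CPM in KO Ly6Clo and 2.48, 42.8 and 30.3 CPM in WT Ly6Clo. KO Ly6Clo replicate 2 thus had Flt3 above all WT Ly6Clo libraries, with Cd209a at 2.24 CPM. The 15 genes of conventional dendritic cells summed to 2016, 3280 and 2188 CPM in KO Ly6Clo and 1976, 2673 and 2435 CPM in WT Ly6Clo, and the groups overlapped. Most of that sum is Sirpa, which monocytes also express, at 1269, 1721 and 1545 CPM in KO Ly6Clo and 1447, 1818 and 1587 CPM in WT Ly6Clo. Of the 14 genes tested, 8 had a positive and 6 a negative log2 fold change, and none was called by edgeR (1 at an unadjusted p under 0.05). Xcr1, which marks 1 branch of these cells, was at 3.34, 13.5 and 0.737 CPM in KO Ly6Clo and 2.04, 1.70 and 1.09 CPM in WT Ly6Clo. Zbtb46, a transcription factor of these cells, was at 32, 37.7 and 25.0 CPM in KO Ly6Clo and 6.05, 24.7 and 17.1 CPM in WT Ly6Clo, with all KO values above the WT Ly6Clo values, while Batf3 and Cd8a, further genes of the list, had log2 fold changes of -0.40 and -0.39. The 1 gene of the list with an unadjusted p under 0.05 was Dpp4. It was at 348, 225 and 125 CPM in KO Ly6Clo and 67.0, 58.0 and 56.7 CPM in WT Ly6Clo, without overlap. Its log2 fold change was 1.94 (SE 0.35, 95% interval 1.16 to 2.73, edgeR adjusted p = 0.15). Flt3, Xcr1, Zbtb46, Sirpa, Batf3, Cd8a and Dpp4 were chosen after their values were seen. The part of dendritic cells in the Cd209a difference was not tested. No gene of the other cell lists was called by edgeR between genotypes. Median log2 fold changes were 2.08 for neutrophil, 1.17 for erythroid, 0.91 for basophil and 0.18 for platelet genes. They were -0.61 for red pulp macrophage, -0.57 for B cell, -0.24 for NK, -0.18 for T cell and -0.10 for plasmacytoid dendritic cell genes. At an unadjusted p under 0.05 in edgeR were 3 of 9 neutrophil and 1 of 6 plasmacytoid genes. The part of these cells in genotype differences was not tested.

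**Figure D3:**
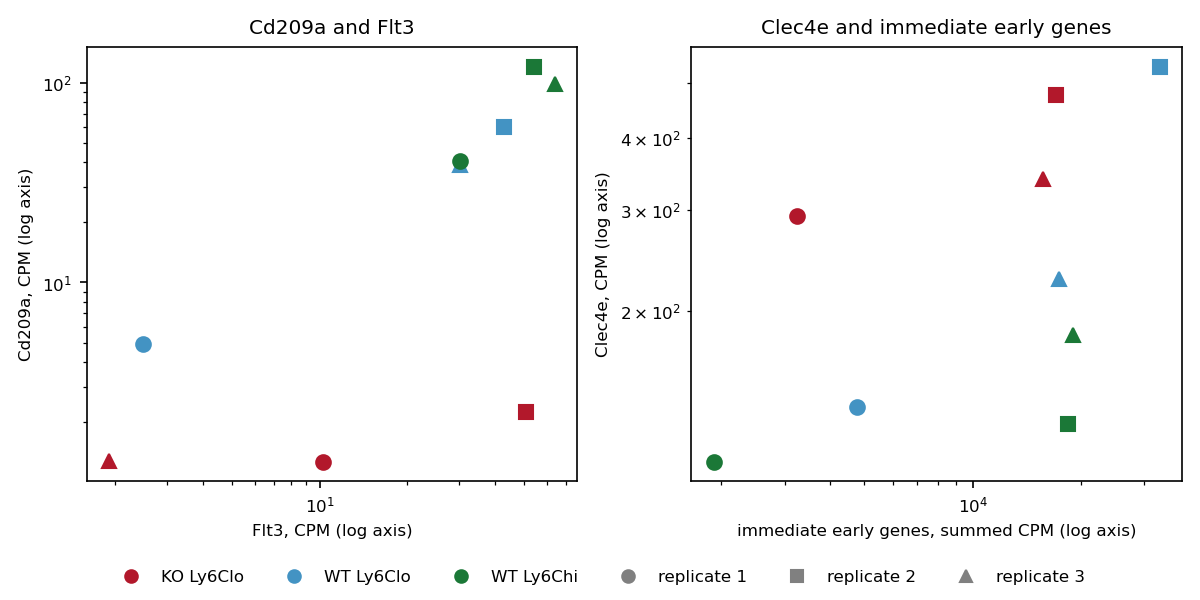
Left, Cd209a against Flt3, and right, Clec4e against the summed immediate early genes, in CPM on log axes, 1 point per library, coloured by group and shaped by replicate. Cd209a is low in all 3 KO Ly6Clo libraries at Flt3 levels from 1.90 to 51.0 CPM. Replicate 1 has the lowest immediate early sum in each group, a sum that includes Nr4a1.

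Clec4a2 had the opposite sign, again without a call by edgeR. It was at 40.1, 17.5 and 15.4 CPM in KO Ly6Clo, against 6.31, 8.44 and 7.48 CPM in WT Ly6Clo, so that every KO library was above every WT Ly6Clo library and below every WT Ly6Chi library. The log2 fold change was 1.71 (SE 0.43, 95% interval 0.73 to 2.70, edgeR adjusted p = 0.42, DESeq2 adjusted p = 0.011). Clec5a was at 0.0155, 0.379 and 0.211 CPM in KO Ly6Clo, against 2.09, 0.822 and 1.47 CPM in WT Ly6Clo. The lowest of these is 1 count and the others 54 and 12 counts, so the value of KO Ly6Clo replicate 1 lies under the floor of 3 counts (0.0466 CPM), and the fold change rests partly on it. The log2 fold change was -2.77 (SE 0.79, 95% interval -4.56 to -0.99, edgeR adjusted p = 0.49, DESeq2 adjusted p = 0.0097). Clec10a was at 4.73, 1.82 and 3.74 CPM in KO Ly6Clo, against 6.22, 10.0 and 9.36 CPM in WT Ly6Clo, with a log2 fold change of -1.32 (SE 0.39, 95% interval -2.21 to -0.43, edgeR adjusted p = 0.53).

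The other 6 genes overlapped between the genotypes, each with edgeR adjusted p = 1. Clec4a3 was at 1217, 620 and 673 CPM in KO Ly6Clo and 1018, 727 and 760 CPM in WT Ly6Clo, with a log2 fold change of 0.00 and a 95% interval of -0.59 to 0.59. Clec4a1 was at 221, 187 and 147 CPM in KO Ly6Clo and 256, 214 and 186 CPM in WT Ly6Clo (-0.24, interval -0.69 to 0.20). Clec12a was at 300, 150 and 188 CPM in KO Ly6Clo and 259, 218 and 229 CPM in WT Ly6Clo (-0.15, interval -0.70 to 0.41). For these 3 genes the 95% interval leaves out a doubling in either direction. Clec7a was at 153, 241 and 196 CPM in KO Ly6Clo (-0.54, interval -1.35 to 0.28), Clec4e at 292, 476 and 340 CPM (0.31, interval -0.71 to 1.33) and Clec4d at 3.66, 4.32 and 3.35 CPM (-0.35, interval -1.35 to 0.65), with the WT Ly6Clo values as given above. Their intervals are wider and do not leave out a doubling in 1 direction. Taken by same-numbered pairs, Clec4a1 and Clec7a were lower in the KO library in 3 of 3 pairs, and with the replicate block the edgeR adjusted p was 0.89 for Clec4a1 and 0.782 for Clec7a.

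**Figure D4:**
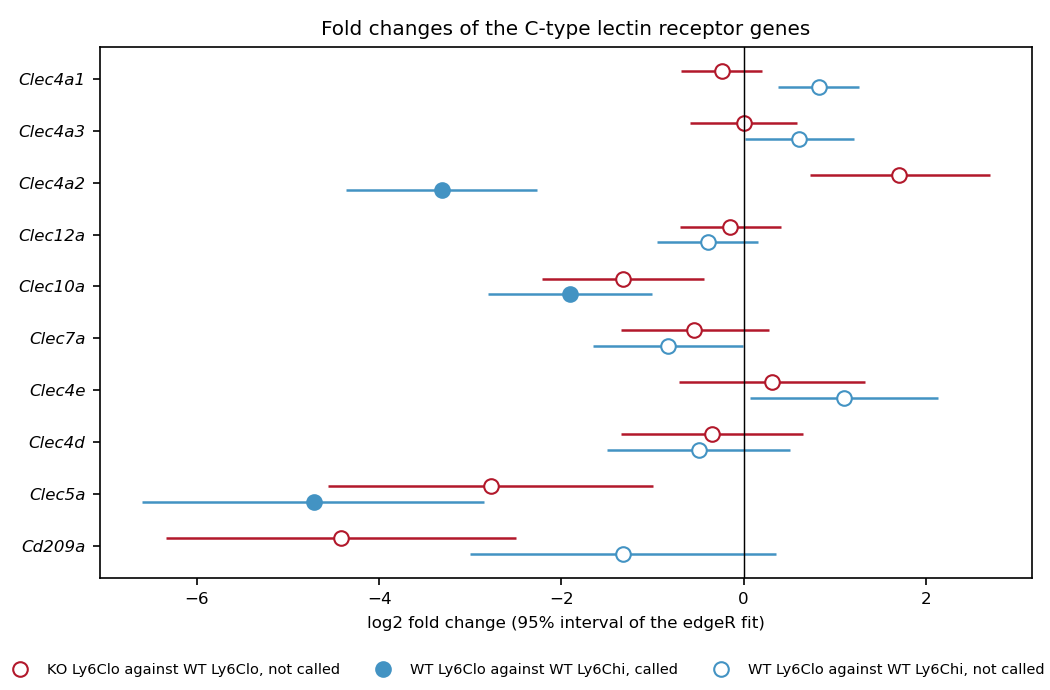
Log2 fold changes (x axis, with 95% intervals) of the 10 genes for KO Ly6Clo against WT Ly6Clo in red and WT Ly6Clo against WT Ly6Chi in blue, filled where called by edgeR. The filled points are Clec4a2 at -3.31, Clec5a at -4.72 and Clec10a at -1.91, all in the comparison of the WT subsets.

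KO Ly6Clo and WT Ly6Chi libraries were also set against each other. The values share their libraries with the comparisons above and are given only side by side. Of the 10 genes, 3 were called, all lower in KO Ly6Clo, against 4.52% of all tested genes (2.06% higher, 2.46% lower). At an unadjusted p under 0.05 there were 8 of the 10, against 16.9% of all, and 8 of the 10 had no overlap between groups, against 22.9% of all. Clec5a had a log2 fold change of -7.50 (edgeR adjusted p = 0.0035), Clec10a of -3.22 (edgeR adjusted p = 0.0041) and Cd209a of -5.74 (edgeR adjusted p = 0.009). These calls held under all 18 alternative settings. Clec4a2 was at -1.60 (edgeR adjusted p = 0.08), where WT Ly6Clo against WT Ly6Chi gave -3.31. It was called lower in KO Ly6Clo in 7 of the 18 alternatives: with DESeq2, limma-voom, no filter, the replicate block, the term for library number runs, without KO Ly6Clo replicate 1 and without replicate 1 of each group.

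Along the chromosome 6 neighbourhood, Clec4a2 had the largest absolute log2 fold change of the 9 genes in both comparisons. Its neighbour before it, Clec4b1, had log2 fold changes of -0.55 for KO Ly6Clo against WT Ly6Clo and 0.84 for WT Ly6Clo against WT Ly6Chi. Clec4b2, after it, had 0.18 and 0.19. Clec4a4, which encodes the inhibitory DCIR2, had -0.15 and 0.36, and Clec4n, which encodes Dectin-2, had 0.44 and 0.84. None of these 4 was called in either comparison, the lowest edgeR adjusted p being 0.23, for Clec4b1 between the WT subsets.

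**Figure D5:**
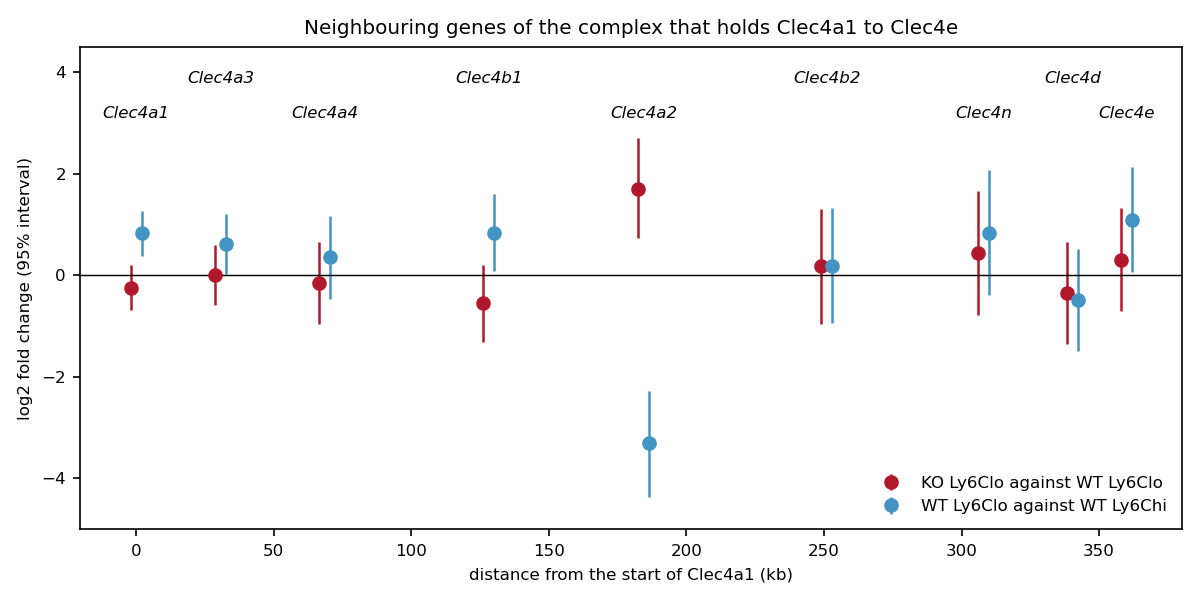
Log2 fold changes with 95% intervals of the 9 neighbouring genes, placed by distance (kb) of each start from that of Clec4a1, for KO Ly6Clo against WT Ly6Clo in red and WT Ly6Clo against WT Ly6Chi in blue. Clec4a2 is at 1.71 and -3.31, and the other 8 genes lie between -0.55 and 1.10.

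Other genes of the family and its pathway were taken from 3 lists. Of 33 other C-type lectin receptor genes 25 were tested, and 0 were called in KO Ly6Clo against WT Ly6Clo or in WT Ly6Clo against WT Ly6Chi by edgeR (1 and 2 at an unadjusted p under 0.05). Their median log2 fold changes were -0.18 and 0.10. The 2 with the highest CPM, which does not account for gene length, were Clec2i and Cd302. Clec2i was at 163 ± 95.3 CPM in KO Ly6Clo, 184 ± 41.0 in WT Ly6Clo and 139 ± 9.20 in WT Ly6Chi, and Cd302 at 99.9 ± 54.4, 84.7 ± 13.6 and 129 ± 30.5 CPM in the same order. Colec12, a scavenger receptor with a lectin domain, was the 1 gene called lower in KO Ly6Clo against WT Ly6Chi (log2 fold change -4.76, SE 1.10, edgeR adjusted p = 0.046). It was at 0.202, 0.575 and 0 CPM in KO Ly6Clo, 12.4, 25.6 and 34.5 CPM in WT Ly6Clo, against 2.72, 11.1 and 8.49 CPM in WT Ly6Chi. All KO libraries were near 0, and KO against WT Ly6Clo gave -6.46 (SE 1.19, edgeR adjusted p = 0.16).

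The signalling chain below the receptors was present in all groups. Fcer1g was at 1510 ± 402 CPM in KO Ly6Clo, 1490 ± 152 in WT Ly6Clo and 1190 ± 84.0 in WT Ly6Chi, and Tyrobp at 1340 ± 388, 1580 ± 210 and 1650 ± 99.4 CPM, and neither was called. Of 19 adaptor and signalling genes 0 were called between genotypes by edgeR (0 at an unadjusted p under 0.05, median -0.12). Ptpn6, the inhibitory phosphatase, was at 1770 ± 288 CPM in KO Ly6Clo and 2060 ± 69.0 in WT Ly6Clo, and Prkcd, a kinase between Syk and Card9, at 1670 ± 118 and 1850 ± 118 CPM. Between the WT subsets 2 of the 19 were called, both higher in WT Ly6Clo (median 0.32). Of these, Ptpn6 was at 2060 ± 69.0 CPM in WT Ly6Clo and 1280 ± 105 in WT Ly6Chi (log2 fold change 0.69, SE 0.15, edgeR adjusted p = 0.042).

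Of 20 downstream transcription factors and cytokines 18 were tested. Between genotypes 0 were called by edgeR (0 at an unadjusted p under 0.05, median -0.28). Il1b was at 1810 ± 1160 CPM in KO Ly6Clo and 1400 ± 1190 in WT Ly6Clo, a spread wider than the difference. Between the WT subsets 2 were called, both higher in WT Ly6Clo (median 1.0). Nfkb1, a subunit of NF-kappaB, was at 492 ± 70.0 CPM in WT Ly6Clo and 235 ± 61.9 in WT Ly6Chi (1.07, SE 0.21, edgeR adjusted p = 0.031), with 441 ± 18.0 CPM in KO Ly6Clo. Tnf, an inflammatory cytokine, was at 40.1 ± 31.5 CPM in WT Ly6Clo and 4.39 ± 0.257 in WT Ly6Chi (3.19, SE 0.62, edgeR adjusted p = 0.027).

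For the 3 genes called between the WT subsets, the other tested genes with the most similar pattern over the 9 libraries were sought among 9659 candidates, by the mean absolute difference of centred log2(CPM + 1). Among the nearest to Clec5a were Fcnb at 0.39 and Stox2 at 0.42. Stox2 was at 0.282 ± 0.315 CPM in KO Ly6Clo, 0.994 ± 0.852 in WT Ly6Clo and 23.4 ± 3.16 in WT Ly6Chi. Nearest to Clec4a2 were Nxpe5 at 0.28, Ccdc102a at 0.36 and Ikbke at 0.39, and Ikbke was at 33.1 ± 9.20, 18.0 ± 3.07 and 90.4 ± 3.65 CPM in the same order of groups. Nearest to Clec10a were Ethe1 at 0.19, Gpx3 at 0.23 and Galnt9 at 0.25, and Ethe1 was at 20.9 ± 4.73, 35.8 ± 1.02 and 150 ± 28.2 CPM. These values describe likeness in these libraries only.

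The library numbers of the deposited files fall into 2 runs of 5 and 4 libraries, each with all groups. Within them the difference of mean log2(CPM + 1) for KO Ly6Clo against WT Ly6Clo was -2.81 and -4.12 for Cd209a, 1.73 and 0.95 for Clec4a2, -1.0 and -1.03 for Clec5a and -1.15 and -1.13 for Clec10a. For WT Ly6Clo against WT Ly6Chi it was -3.79 and -2.69 for Clec4a2, -4.71 and -3.51 for Clec5a and -2.26 and -1.44 for Clec10a. The groups compared did not overlap for any of these genes, so the same sign in both runs was fixed in advance. KO Ly6Clo and WT Ly6Clo had 2 libraries each in run 1 and 1 each in run 2. WT Ly6Chi had 1 library in run 1 and 2 in run 2. Over all 10 genes, the sign was the same in both runs for 9 between genotypes, with Clec4a3 the exception (0.01 and -0.18), and for 10 between the WT subsets.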

How the data were processed

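Gene counts were taken from 1 table per library, whose titles give group and replicate number. Per the file headers, the deposited counts are raw numbers of reads for each gene. The submitters' processing notes name STAR 2.5.1a, featureCounts 1.4.6-p5, Salmon 0.8.2, edgeR, limma and, as genome build, GRCm38 (mm10). Use of strand and the treatment of reads shared by genes are not given in the sources used here. Symbols came from GENCODE M21 for 55141 of 55487 IDs (99.38%), and promoter sequences from RefSeq. Depth was 48141590 to 173703361 counts, so 3 counts equal 0.0173 to 0.0623 CPM. These floors and the precision of a count cover counting error only. Between replicates, the chi-square per gene of their counts was 55.2 to 482, a spread beyond counting error. Each library was treated as 1 sample, although this spread cannot show that the replicates came from different mice.

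Counts were fitted in R 4.3.3 with edgeR 4.0.16: filterByExpr (minimum count 10), TMM scaling, 1 term per group over all 9 libraries, quasi-likelihood test and Benjamini-Hochberg adjustment over 18341 genes. Each SE was taken from the F statistic. The fit was run on simulated counts with less spread between libraries than these data have (common dispersion 0.448). That run does not show how many true changes the fit finds here. Levels per length are CPM per kilobase of the deposited gene length.

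Deviations from the group means of same-numbered KO and WT Ly6Clo libraries correlated at r = 0.46, 0.35 and 0.12 over genes. Unlike-numbered ones were at -0.42 to 0.13, and those of them that shared a run of library numbers were at -0.42 and -0.34. The same-numbered libraries also shared a run. Whether the numbers in the titles mark pairs stays unknown. The main fit was unpaired in all comparisons, and a replicate block was 1 of the alternatives.

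The members and gene lists were chosen with earlier results of these data known. All members are named, and of each other list up to 4 called genes, or, with no call, the 2 at the highest level. Also named are Cebpa, Ly6c2, Ccr2, Nr4a1 and Cx3cr1, and the 3 genes most like each of up to 3 called members. Genes named outside this rule (Colec12 between genotypes, Fcer1g, Tyrobp, the neighbours of Clec4a2 and markers of other cells) were chosen after their values were seen. Results for some genes under the rule are not reported here.

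Alternatives were RLE scaling, no filter, 1 CPM in 3 libraries, DESeq2 1.42.0, limma-voom with limma 3.58.1, a fit of the 2 groups alone, a replicate block, a term for library number runs and each library left out. Leaving out replicate 1 of each group was added after seeing the data.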

Additional observations from a re-analysis of the deposited data

How the results depend on the processing

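Over 18 alternatives per comparison, 497 of 540 log2 fold changes of the 10 genes kept direction and side of the threshold, 24 passed it newly, 15 lost it and 4 changed sign. The sign changes were all between genotypes, in leave-one-out fits. Clec4e ranged from -0.06 (without WT Ly6Clo replicate 1) to 1.05, Clec4d from -0.65 to 0.07 and Clec7a from -0.84 to 0.01 (both highest without WT Ly6Clo replicate 2), and Clec12a from -0.49 to 0.03 (without KO Ly6Clo replicate 2). The cause was not tested. For KO Ly6Clo against WT Ly6Clo, the 13 genes called over all genes became 54 with no filter, 27 with 1 CPM in 3 libraries, 277 with DESeq2 and 2 without replicate 1 of each group. They became 0 with only the 2 groups in the edgeR fit (859 at an unadjusted p under 0.05), which has fewer libraries to estimate the spread. Leaving out 1 library gave 2 to 21. Of the 10 genes, 1 was called with no filter, 3 with DESeq2 and 0 to 1 without a library. For WT Ly6Clo against WT Ly6Chi, DESeq2 called 1968 genes, in place of 643. Leaving out 1 library gave 239 to 847 over all genes and 1 to 4 of the 10. For KO Ly6Clo against WT Ly6Chi, DESeq2 called 1950 genes, in place of 829, and leaving out 1 library gave 379 to 818. Of the 10, 6 were called by DESeq2, 5 with only the 2 groups in the fit and 3 to 5 without a library. With the replicate block, 13 genes were called between genotypes and 0 of the 10, so that no call of theirs changed. In WT Ly6Clo against WT Ly6Chi the block gave 949 genes and 2 of the 10, Clec10a being lost with edgeR adjusted p = 0.054. In KO Ly6Clo against WT Ly6Chi it gave 977 genes and 5 of the 10. Same-numbered libraries correlated at 0.35, 0.14 and 0.07 and at 0.33, 0.24 and -0.01 in these 2 comparisons. Those of replicates 1 and 3 also shared a run of library numbers, and those of replicate 2 did not. A term for library number runs left Clec10a between WT subsets at edgeR adjusted p = 0.059. Depth limits Clec5a in KO Ly6Clo, with 1, 54 and 12 counts.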
